A study of Homo sapiens with 6 samples.

Results

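The genes examined here are those of the urokinase system and of the pericellular proteases with their inhibitors, 9 in all, chosen by name out of the 30735 genes listed in the files: PLAU, PLAUR, PLAT, SERPINE2, MMP14, MMP2, TIMP1, TIMP2 and TIMP3. They were chosen with earlier results of these data known, so the counts and shares below describe the list and do not test it. All 9 had a row in every sample. Messenger RNA was measured by RNA-seq in PANC-1 cells, an established line grown from a human carcinoma of the pancreatic duct, after transfection with CD73 siRNA (3 samples) or a negative control (3 samples). Both groups were grown in DMEM with serum and received their siRNA with the same lipid reagent, without serum, and the labels name no other difference between them. CD73 is the cell surface enzyme encoded by NT5E. All samples come from 1 cell line, and the sequence of the siRNA and the time from transfection to RNA extraction are not given in the sources used here. The study describes the samples of a group as separate knockdown experiments.

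Cells clear matrix at their surface with a short cascade. Urokinase, the product of PLAU, binds its receptor uPAR, the product of PLAUR, and converts plasminogen to plasmin, a protease of broad specificity. Tissue plasminogen activator (PLAT) makes the same cut, and the serpin protease nexin-1 (SERPINE2) inhibits both activators. The membrane-anchored metalloproteinase MMP14 degrades collagen and activates the secreted gelatinase MMP2 with the help of TIMP2, while the TIMP proteins inhibit metalloproteinases. In pancreatic cancer much of this proteolysis takes place between tumor cells and stroma, and a cultured line holds only the tumor cell part.

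The values are read here as RPKM, reads normalized to gene length and library total, so that levels can be compared between genes. No source names the unit. Multiplied by the exon length of each gene, the values were whole multiples of 1 step per sample (within 0.05 reads) in 95.5% to 95.6% of genes with under 1000 reads, and that step gives totals of 15009113 to 16836208 reads per sample. NT5E itself was at 3.36, 6.85 and 8.22 RPKM in CD73 siRNA replicates 1, 2 and 3 and at 13.96, 13.87 and 17.14 RPKM in the controls of the same numbers, so each knockdown sample lay below each control. Of all genes tested below, 8.07% were also lower without overlap. The NT5E mean was 41.0% of the control mean, a log2 difference of -1.225 with an adjusted p of 0.303 from limma (described below). The housekeeping gene GAPDH had a log2 difference of -0.012.

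The 9 genes spanned a wide range of expression. In the negative controls PLAU was the most abundant at 48.9 ± 6.36 RPKM (SD, n = 3), followed by TIMP1 at 31.5 ± 5.18, MMP14 at 16.5 ± 1.54, TIMP2 at 11.3 ± 2.48 and MMP2 at 4.55 ± 1.67 RPKM. PLAUR followed at 2.50 ± 0.77 RPKM. SERPINE2 (0.71 ± 0.15), TIMP3 (0.34 ± 0.21) and PLAT (0.071 ± 0.024 RPKM) were below 1 RPKM in every sample. In this order, each gene was above the next in all controls, except that MMP2 and PLAUR overlapped. In the CD73 siRNA samples the first 3 genes drew together, since PLAU overlapped TIMP1 and TIMP1 overlapped MMP14, and TIMP3 overlapped PLAT.

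**Figure D1:**
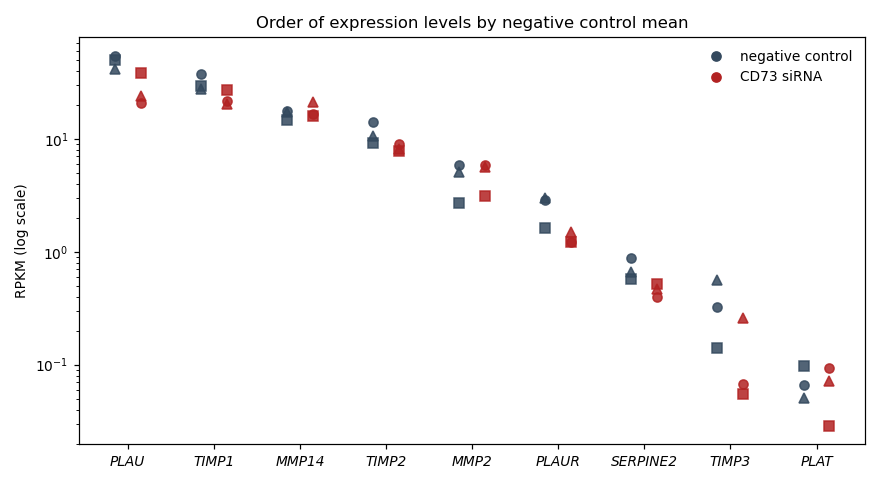
RPKM of the 9 genes (vertical axis, log scale) in the order of their negative control means, with each sample as a point (dark, negative control; red, CD73 siRNA; circle, square and triangle, replicates 1, 2 and 3). PLAU is at the top of the order in the controls, at 42.0 to 54.55 RPKM, and the last 3 genes lie below 1 RPKM in all 6 samples.

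After CD73 knockdown, PLAU fell to 56.6% of its control mean. PLAUR, TIMP1 and TIMP2 had lower means by 47.7%, 27.0% and 26.5% and did not pass the threshold of an unadjusted p below 0.01, while the means of MMP14 and MMP2 were 108.9% and 106.8% of the control means. The test was limma on log2(RPKM + 1), run on the 12527 genes that reached 1 RPKM in 3 or more samples, among them 6 of the 9. The threshold is the one the study gave for its changed genes. The study does not mention limma, so its calls and those made here need not match. Of the 6 genes tested, 1 was lower past the threshold and 0 were higher, beside 1.31% of all tested genes lower and 1.82% higher. By limma with Benjamini-Hochberg adjustment over all tested genes, 0 of the 6 had an adjusted p below 0.05, as did 1 of all tested genes (0.00798%). At an unadjusted p below 0.05 limma placed 4 of the 6 lower, beside 4.90% of all tested genes lower and 12.1% in either direction. The median log2 difference of the 6 was -0.41, against 0.0091 over all tested genes. In bulk RNA, fewer cells expressing a gene and less message per cell cannot be told apart.

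PLAU (ENSG00000122861), the activator of the cascade, was at 20.75, 38.2 and 24.0 RPKM in CD73 siRNA replicates 1, 2 and 3 and at 54.55, 50.1 and 42.0 RPKM in the negative controls. The groups did not overlap, and knockdown replicate 2 came close to the lowest control, replicate 3. The means were 27.7 ± 9.30 and 48.9 ± 6.36 RPKM (SD, n = 3 each), a log2 difference of -0.84 (SE 0.21, 95% interval -1.33 to -0.34), past the unadjusted threshold in limma with an adjusted p of 0.303. An exact two-sided permutation test gave p = 0.1, the smallest that 3 samples against 3 allow. These values came from 984 to 2581 reads per sample. The gene lies on chromosome 10 from 73909177 to 73917497 (GENCODE release 29, GRCh38, forward strand), and 31.1% of its exon length is shared with exons of C10orf55 on the opposite strand. C10orf55 had 1 to 15 reads per sample, 0.41% of the PLAU reads, but whether the counting used strand is not given in the sources used here. With a library left out, the log2 difference stayed between -1.09 and -0.66, but the call was not always kept. The call was lost when CD73 siRNA replicate 1 or 3 was left out, at log2 differences of -0.66 and -0.76. It was also lost without control replicate 1 or 2, at -0.76 and -0.82. Such fits have fewer samples, so a lost call does not by itself show that the difference hangs on that library.

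PLAUR (ENSG00000011422), the urokinase receptor, was at 1.21, 1.21 and 1.49 RPKM in the knockdown samples and at 2.85, 1.62 and 3.02 RPKM in the controls. All knockdown samples were below all controls, and control replicate 2 stood nearest to them. The log2 difference was -0.58 (SE 0.18, 95% interval -1.0 to -0.15), with an adjusted p of 0.343 from limma, on 85 to 204 reads per sample. The added 1 RPKM weighs on so low a gene, and with 0.1 in its place the difference was -0.84, against -0.86 for PLAU. With the replicate number as a block, which pairs each knockdown sample with the control of its number, PLAUR was past the threshold, with an adjusted p of 0.119. PLAUR lies on the reverse strand of chromosome 19 from 43646095 to 43670547 and shares no exon bases with another annotated gene.

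The proportion of ligand to receptor message did not separate the groups. The ratio of PLAU to PLAUR, per length, was 17.1, 31.5 and 16.1 in the knockdown samples and 19.1, 30.9 and 13.9 in the controls. The number 2 samples of both groups had the highest ratio, and the groups overlapped. This pair and the ones below were picked after the values of the genes had been seen and are given as a description.

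The remaining activator, PLAT (ENSG00000104368), could hardly be measured. It had 10, 3 and 8 reads in the knockdown samples and 7, 10 and 5 in the controls, or 0.029 to 0.097 RPKM over all 6. The groups overlapped, and at this depth no difference was detectable. The gene, on chromosome 8 from 42175233 to 42207724, was not tested across genes because it did not reach 1 RPKM.

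SERPINE2 (ENSG00000135919), the inhibitor of both activators, was at 0.40, 0.52 and 0.47 RPKM in the knockdown samples and at 0.88, 0.58 and 0.66 RPKM in the controls. The groups did not overlap, with knockdown replicate 2 just under control replicate 2, and an exact permutation test gave p = 0.1. The difference was -0.22 on log2(RPKM + 1), a scale that understates the change of such a low gene, and 57 to 125 reads per sample lay behind it. SERPINE2 spans 64208 bp on chromosome 2 from 223975112 to 224039319 and was also below the filter.

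**Figure D2:**
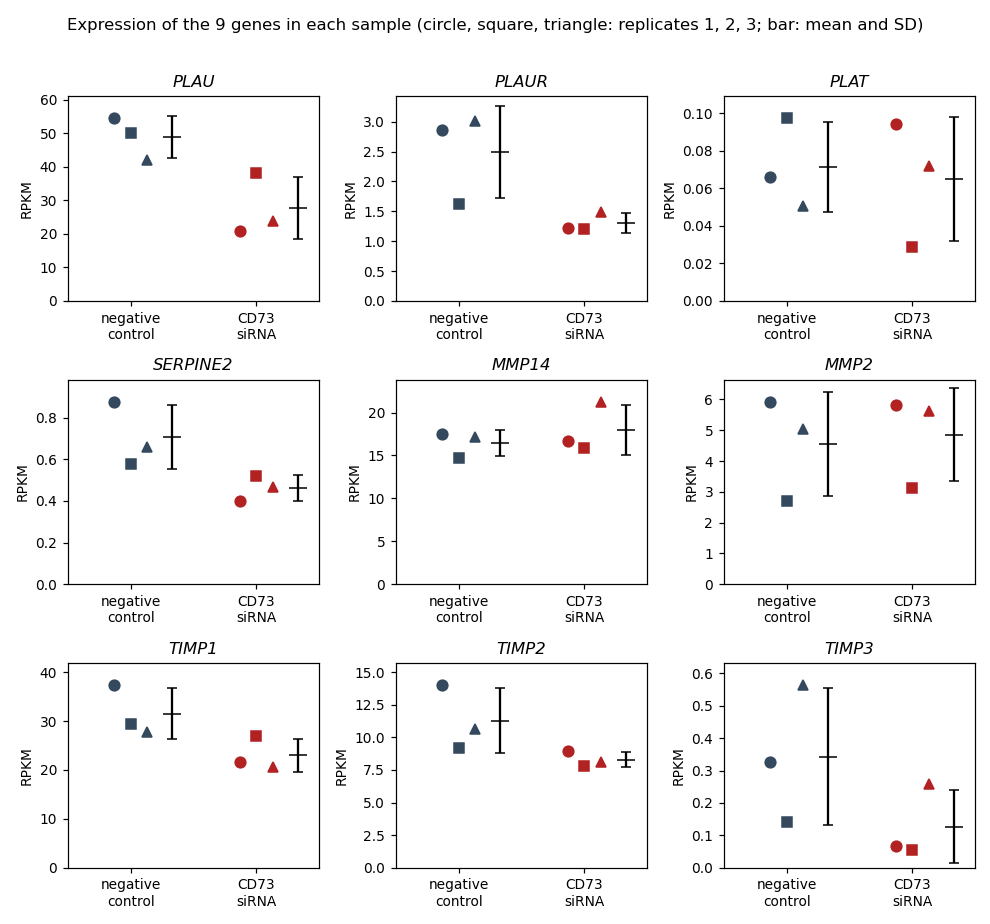
RPKM (vertical axes, from 0) of each of the 9 genes in the 6 samples, with negative control samples dark and CD73 siRNA samples red, circle, square and triangle for replicates 1, 2 and 3, and a bar for the mean and SD. The groups are apart for PLAU, PLAUR, SERPINE2, TIMP1 and TIMP2 and overlap for PLAT, MMP14, MMP2 and TIMP3.

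For the metalloproteinases no difference was called. MMP14 (ENSG00000157227), the membrane-anchored collagenase, was at 16.6, 15.9 and 21.3 RPKM in the knockdown samples and at 17.6, 14.7 and 17.1 RPKM in the controls. The groups overlapped, and knockdown replicate 3 was the highest of the 6. The log2 difference was 0.11 (SE 0.13, 95% interval -0.20 to 0.42), with an adjusted p of 0.774 from limma. Without CD73 siRNA replicate 3 it was -0.013. MMP14 lies on chromosome 14 from 22836557 to 22849027 and had 1019 to 1599 reads per sample.

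MMP2 (ENSG00000087245), the gelatinase that MMP14 activates, was at 5.83, 3.13 and 5.62 RPKM in the knockdown samples and at 5.93, 2.69 and 5.04 RPKM in the controls. The level went with the replicate number. Both samples numbered 2 were low and the other 4 lay together, whichever siRNA they had received. The log2 difference was 0.092 with a wide interval (SE 0.27, 95% interval -0.54 to 0.72, adjusted p = 0.919 from limma). Within the numbers 1, 2 and 3 it was -0.021, 0.16 and 0.13. The sign turned when a library was left out, to -0.036 without CD73 siRNA replicate 1, -0.015 without CD73 siRNA replicate 3 and, with control replicate 2 removed, -0.18. MMP2 lies on chromosome 16 from 55389700 to 55506691.

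Of the inhibitors, TIMP1 (ENSG00000102265), a secreted inhibitor of many metalloproteinases, was at 21.6, 26.9 and 20.5 RPKM in the knockdown samples and at 37.4, 29.4 and 27.8 RPKM in the controls. The groups were apart by less than 1 RPKM, between knockdown replicate 2 and control replicate 3, and control replicate 1 was highest. The log2 difference was -0.43 (SE 0.15, 95% interval -0.78 to -0.093), with an adjusted p of 0.353 from limma. TIMP1 is a short gene on the X chromosome, from 47582313 to 47586789, inside SYN1 on the opposite strand, and shares no exon bases with it.

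TIMP2 (ENSG00000035862), which both inhibits MMP2 and presents it to MMP14, was at 8.97, 7.82 and 8.13 RPKM in the knockdown samples and at 14.0, 9.20 and 10.7 RPKM in the controls. The knockdown samples lay close together, and control replicate 2 was only just above them. The log2 difference was -0.39 (SE 0.15, 95% interval -0.73 to -0.036), with an adjusted p of 0.382 from limma. With the replicate number as a block TIMP2 was past the threshold (adjusted p = 0.119). TIMP2 lies on chromosome 17 from 78852977 to 78925387. It shares 10.0% of its exon length with other genes, and of these CEP295NL had 1 to 4 reads per sample.

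TIMP3 (ENSG00000100234), the inhibitor that binds to the matrix, had 5, 4 and 20 reads in the knockdown samples and 24, 10 and 39 in the controls, or 0.068, 0.055 and 0.26 against 0.33, 0.14 and 0.56 RPKM. Replicate 3 was highest in both groups and the groups overlapped, with an exact permutation p of 0.2. TIMP3 lies on chromosome 22 from 32801701 to 32863043 and was below the filter.

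The proportion of MMP14 to its partner TIMP2, also picked after the values had been seen, did not overlap between the groups. TIMP2 alone was already lower without overlap. The ratio of MMP14 to TIMP2, per length, was 1.86, 2.03 and 2.62 in the knockdown samples and 1.25, 1.60 and 1.61 in the controls. The exact permutation test gave p = 0.1, the smallest that 3 samples against 3 allow. The ratio of MMP2 to TIMP2 was 0.65, 0.40 and 0.69 against 0.42, 0.29 and 0.47, and here the groups overlapped. The ratio of TIMP1 to TIMP2 was 2.79 ± 0.56 and 2.82 ± 0.32 (SD, n = 3 each). That of MMP14 to MMP2 was 3.9 ± 1.1 and 3.9 ± 1.3, and both ratios overlapped between the groups.

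Counted over all 9 genes, the groups did not overlap in 5, all of them lower after CD73 siRNA, beside 5.39% of all genes in the files that were lower without overlap and 6.33% that were higher. Among the 6 tested genes it was 4, beside 8.07% of all tested genes lower and 10.3% higher. The samples were also compared within their replicate number. PLAU, PLAUR, SERPINE2, TIMP1, TIMP2 and TIMP3 were lower in the knockdown sample of every number, 6 of 9 genes beside 15.1% of all genes in the files. Among the tested genes it was 4 of 6, beside 24.5%. For PLAU the differences were -1.35, -0.38 and -0.78 (log2) in numbers 1, 2 and 3, for PLAUR -0.80, -0.24 and -0.69, for TIMP1 -0.76, -0.12 and -0.42, and for TIMP2 -0.59, -0.21 and -0.35. The difference was smallest in number 2 in all 4. Of the 3064 tested genes lower in every number, 55.6% had their smallest difference in number 2. For NT5E the differences were -1.78, -0.92 and -0.98 in numbers 1, 2 and 3, nearly alike in numbers 2 and 3. With the block, limma placed 3 of the 6 tested genes past the threshold, PLAU (adjusted p = 0.113), PLAUR and TIMP2, all lower, beside 3.30% of all tested genes lower and 4.27% higher. In the block fit 0 of the 12527 genes had an adjusted p below 0.05.

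**Figure D3:**
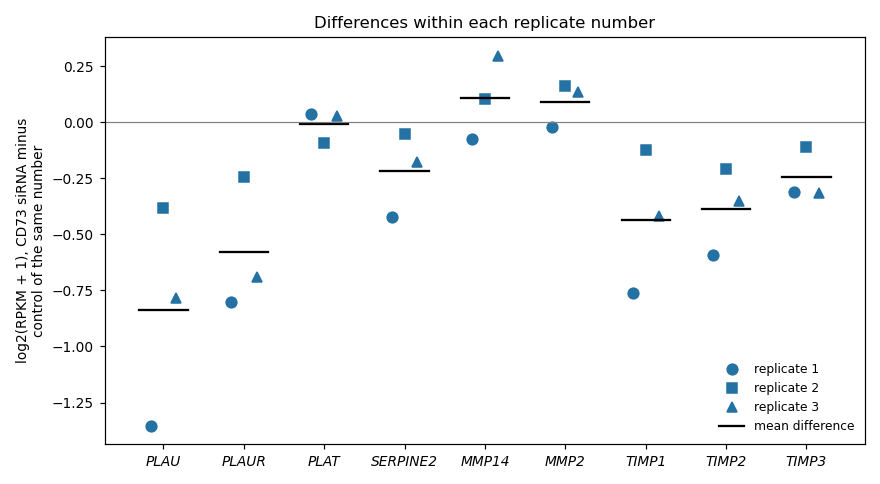
Difference in log2(RPKM + 1) between the CD73 siRNA sample and the control of the same replicate number (vertical axis) for each gene, with circle, square and triangle for numbers 1, 2 and 3 and a line at the mean difference. For PLAU the points lie at -1.35, -0.38 and -0.78, and PLAT, MMP14 and MMP2 have points on both sides of 0.

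Promoter sequence is shown for genes whose groups did not overlap and for MMP14, whose groups did. The reference table of promoters (RefSeq, GRCh38.p14, 250 bases before to 50 after a start site) had 8 windows for 6 of the 9 genes and none for PLAT, MMP2 and TIMP2. The motifs searched on both strands were TGANTCA (AP-1, bound by FOS and JUN dimers), GGGCGG (Sp1) and TATAAA (the TATA box). AP-1 was found in 1 of the 8 windows, that of PLAUR, and in 7.71% of all 35116 promoters. The Sp1 motif was found in 6 of the 8, among them windows of PLAU, SERPINE2, TIMP1, TIMP3 and MMP14, and in 45.0% of all promoters. The TATA box was found in 0 of the 8 and in 11.5% of all promoters. No matches overlapped. Stretches of 30 bases are shown on the strand of the gene, with the motif in capitals (as its reverse complement in TIMP1), to set the AP-1 match of PLAUR beside the GC-rich matches of the other genes.
PLAUR, chr19:43670337-43670366, reverse strand: tcacaactccaTGAGTCAgggccgagccag
PLAU, chr10:73911069-73911098, forward strand: cgggagagggagGGGCGGcgccgGGGCGGg
TIMP1, chrX:47582379-47582408, forward strand: ccgctgccacccCCGCCCctagcgtggaca
SERPINE2, chr2:224031511-224031540, reverse strand: accaatggctgtGGGCGGaggagggaggtt
MMP14, chr14:22836507-22836536, forward strand: aggagggcactgGGGCGGggacggaggaga
The PLAUR match lies from -186 to -180 relative to the start site. These are matches of letters, and binding was not measured.

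The wider pathway was described with 3 lists of other genes. In the plasminogen activation list (19 genes, 8 tested), limma placed 0 genes past the threshold, and 1 of 8 at an unadjusted p below 0.05, beside 12.1% of all tested genes.

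Of this list S100A10, ANXA2 and ENO1 were above 50 RPKM. S100A10 and ANXA2, which form a complex that binds plasminogen, had log2 differences of -0.25 and -0.11 at 204.2 ± 26.5 and 134.1 ± 4.51 RPKM in the knockdown samples against 243.4 ± 34.8 and 145.4 ± 10.3 RPKM in the controls (SD, n = 3 each). S100A10 was past the threshold with the block (adjusted p = 0.129) and not without it. ENO1, a glycolytic enzyme that also binds plasminogen, had a log2 difference of -0.053. Plasminogen itself (PLG) was near 0, with at most 0.065 RPKM. The gene below 0.05 was SERPINB6, an intracellular serpin, with 15.9 ± 0.93 RPKM in the knockdown samples and 11.1 ± 3.19 in the controls (adjusted p = 0.363 from limma). It is named because of its value.

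In the metalloproteinase list (31 genes, 11 tested), limma also placed 0 genes past the threshold and 1 of 11 at an unadjusted p below 0.05 (12.1% of all tested genes), RECK, a membrane-anchored inhibitor of MMP14 and MMP2 named for its value, with a log2 difference of -0.39 (adjusted p = 0.392). BSG, which encodes the MMP inducer EMMPRIN, was the only gene of this list above 50 RPKM, at 132.7 ± 7.82 against 156.2 ± 22.8 RPKM and a log2 difference of -0.23. The secreted MMP1 and MMP9 were low in all samples, with mean RPKM of 0.53 and 0.25 after CD73 siRNA against 0.65 and 0.42 in the controls. The median log2 difference of the 11 was -0.19.

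In the list of membrane serine proteases and cathepsins with their inhibitors (20 genes, 12 tested), limma placed 0 genes past the threshold and 1 of 12 at an unadjusted p below 0.05 (again beside 12.1%), the cathepsin inhibitor CSTB, also named for its value, with a log2 difference of -0.26 (adjusted p = 0.359). The median of the 12 was -0.15. Over the 3 lists together, 0 of 31 tested genes were past the threshold, 1 with the block and 1 in a linear model without moderation, beside 3.13% of all tested genes past it in either direction in limma and 7.57% with the block. Of the 31, the groups did not overlap in 6 that were lower and 1 that was higher, beside 8.07% and 10.3% of all tested genes. Within every replicate number 15 of the 31 were lower, beside 24.5%.

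**Figure D4:**
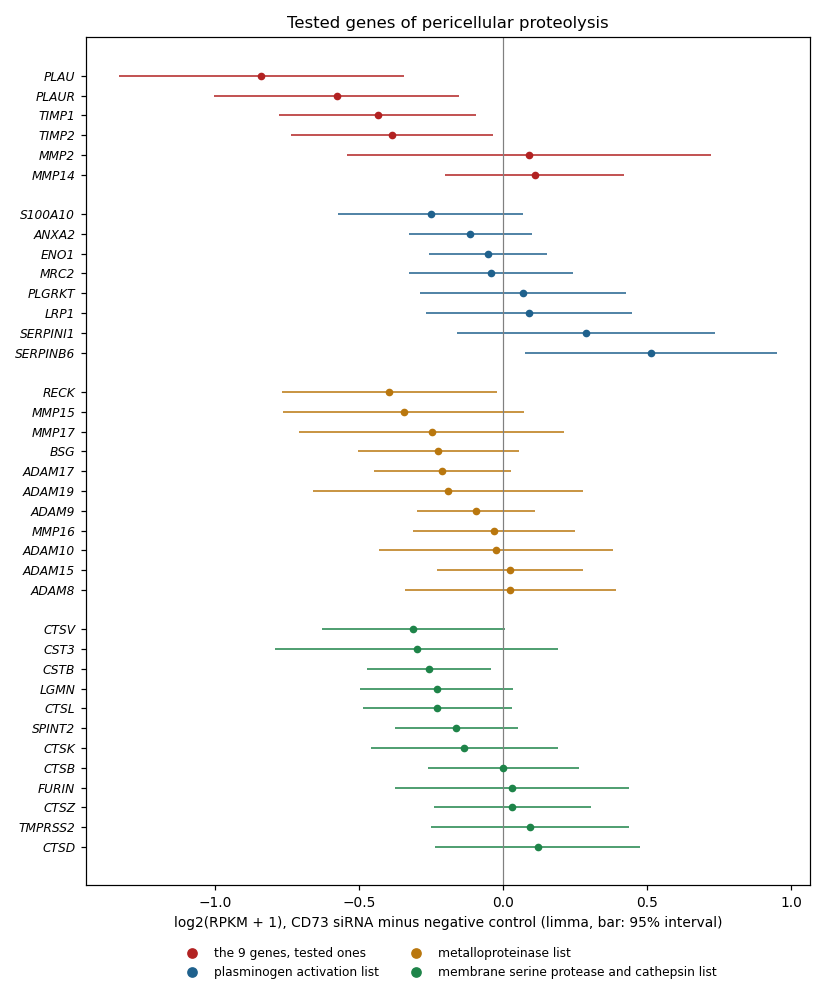
Difference in log2(RPKM + 1) between CD73 siRNA and negative control samples (horizontal axis) for the 6 tested genes of the 9 and the 31 tested genes of the 3 lists, each with its 95% interval from limma. PLAU is farthest below 0, at -0.84, and MMP14 and MMP2 have intervals that include 0.

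By the distance between centred log2 profiles over the 6 samples, the genes most like PLAU among 4832 well-expressed genes were TES, CD59 and HAS3. TES, which encodes a focal adhesion protein, differed from PLAU by a root mean square of 0.040 (log2), against a median of 0.516 over all candidates. It was at 5.44, 10.45 and 6.16 RPKM in the knockdown samples and at 14.4, 14.5 and 11.4 RPKM in the controls. CD59, a GPI-anchored inhibitor of complement, differed by 0.117, and HAS3, a hyaluronan synthase, by 0.132. They were chosen as the nearest of all candidates, so neither their small distances nor their own differences are a further result.

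Markers of the cell type were checked beside these values. Of 5 ductal epithelial markers 4 reached 1 RPKM in at least 1 sample, and KRT7 was near 0 at 0.025 and 0.068 RPKM in the knockdown and control means. The summed level of the 5 was 71.0 to 101 RPKM in the knockdown samples and 134 to 252 RPKM in the controls, without overlap. The sum rested on KRT8 (41.0 ± 9.57 against 104.5 ± 46.7 RPKM, adjusted p = 0.303 from limma) and KRT18 (43.3 ± 6.25 against 70.4 ± 15.3 RPKM, the same adjusted p), the keratins of simple epithelia. Both were past the unadjusted threshold and lower without overlap, so the sum adds nothing to them. Of all tested genes, 1.31% were lower past the threshold and 8.07% were lower without overlap. Within numbers 1, 2 and 3 the log2 difference of KRT8 was -1.78, -0.59 and -1.45. The other 2 measured markers overlapped between the groups, KRT19 with a log2 difference of -0.26 and EPCAM with one of 0.034. The part of these markers in the lower PLAU, PLAUR and TIMP values was not tested. Immune, endothelial, islet and acinar markers that had a row summed to at most 0.117 RPKM in any sample. Of the fibroblast markers only COL1A1 reached 1 RPKM, with list sums of 9.01 to 16.3 RPKM in the knockdown samples and 10.6 to 19.2 in the controls.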

How the data were processed

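The authors deposited 1 table per sample with a normalized value per Ensembl gene, read here as RPKM. The submitters' processing notes name bcl2fastq, Bowtie2 2.2.3, HTSeq 0.6.0 and hg38, without roles. The annotation, strand setting and library total are not given in the sources used here. Symbols came from a supplied name table (30384 of 30735 identifiers matched) and positions and exon lengths from GENCODE release 29, in which 132 identifiers were absent. Samples were grouped, and numbered 1 to 3, by their titles.

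Values were compared on log2(RPKM + 1) with limma 3.58.1 (eBayes with a trend, R 4.3.3) after genes that reached 1 RPKM in fewer than 3 samples were removed. Scripts were tested on simulated data. The main fit was unpaired. Deviations from the group means correlated across genes at 0.20, 0.48 and 0.55 between same-numbered samples 1, 2 and 3. Between samples of unlike number they correlated at -0.44 to -0.0064. Deviations within a group sum to 0, so these correlations are tied to each other. The labels do not say that the numbers pair the samples, and a block fit on the numbers was an alternative. Single genes had exact permutation tests. The 9 genes and the lists were chosen with earlier results of these data known. All 9 genes are reported, with those of the lists above 50 RPKM or past the threshold, PLG, MMP1 and MMP9, and the 3 genes most like PLAU. SERPINB6, RECK and CSTB were added after their values were seen. An item of the lists is not reported here. The study describes separate knockdown experiments, and the labels do not say whether cultures were separate, so p-values may measure technical spread only.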

Additional observations from a re-analysis of the deposited data

How the results depend on the processing

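Of all tested genes, 392 were past an unadjusted p below 0.01, 948 with the replicate block, 216 without moderation and 116 (without CD73 siRNA replicate 1) to 792 (without negative control replicate 2) when a replicate was left out with the tested genes held fixed. Of the 9 genes 1 was past it, 3 with the block, 0 without moderation, 0 with no filter and 0 to 2 with a replicate left out. Of the 3 lists 0 genes were past it, 1 with the block, 1 without moderation, 1 with no filter and 0 to 2 with a replicate left out. PLAU kept its log2 difference of -0.84 and missed the threshold with no filter and without moderation. With the block, PLAUR (-0.58) and TIMP2 (-0.39) were past it. The block changed no other call among the 9 genes. With a pseudocount of 0.1 the difference was -0.066 for PLAT, -0.84 for PLAUR, -0.51 for SERPINE2 and -0.95 for TIMP3, since the pseudocount is smaller against these low values. Leaving out a replicate gave -1.09 to -0.66 for PLAU, -0.77 to -0.46 for PLAUR, -0.55 to -0.31 for TIMP1, -0.51 to -0.23 for TIMP2, -0.013 to 0.19 for MMP14 and -0.18 to 0.33 for MMP2. PLAUR and TIMP2 were past the threshold without negative control replicate 2 and TIMP1 without CD73 siRNA replicate 2. The cause of these changes was not tested. Equal sample medians changed no call or direction of the 6 tested genes, and the group medians differed by 0.019 (log2) before it. Depth limited PLAT and TIMP3.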
